A study of Mus musculus with 2 samples.

Results

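The acid-base genes of intercalated cells were followed across the cell types of the newborn mouse kidney. These 10 genes, of 32285 listed in the count tables, were chosen by name: the proton pump subunits Atp6v1g3, Atp6v0d2, Atp6v1c2, Atp6v1b1 and Atp6v0a4, the transcription factor Foxi1, the anion exchangers Slc4a1, Slc4a9 and Slc26a4, and the carbonic anhydrase Car2. All 10 symbols were found once, and all 10 passed the filter on low counts. Single-cell RNA sequencing covered 2 kidney libraries from postnatal day 0 (P0), here called replicate 1 and replicate 2. Both carried the genotype Rbpj c/+ ; Foxd1cre/+, read here as 1 conditional and 1 wild-type allele of the Notch effector Rbpj together with a Cre recombinase expressed from Foxd1, a gene of stromal progenitors. Both libraries therefore share the Cre and the Rbpj allele, other genotypes were not analysed here, and the effect of the genotype was not tested. The labels do not say whether a library holds 1 animal or a pool, so no spread between animals is measured. The p-values rest only on the spread between these libraries within cell types, pooled over fitted types, after shifts common to a library were removed.

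Intercalated cells are the acid-base cells of the collecting duct and connecting tubule. Carbonic anhydrase makes protons and bicarbonate inside the cell, and the vacuolar proton pump (V-ATPase) moves the protons out. In the acid-secreting type A cell, the pump lies at the apical membrane and bicarbonate leaves to the blood through Slc4a1 (AE1, band 3). In the base-secreting type B cell, bicarbonate leaves to the urine through Slc26a4 (pendrin), with Slc4a9 (AE4) on the basolateral side. Foxi1 is the forkhead transcription factor required for the intercalated fate.

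A barcode was taken as a cell at 3000 or more UMIs (unique molecular identifiers, 1 per captured transcript), 500 or more genes and at most 20% mitochondrial UMIs. This gave 5529 cells in replicate 1 and 4206 in replicate 2, with medians of 15016 and 20007.5 UMIs, and 6 barcode sequences occurred in both libraries. Cells were gated into 16 types by 104 marker genes that included none of the 10 genes studied. Of the cells, 4328 and 3199 took 1 type, 407 and 497 passed for 2 or more types too close to tell apart and were called ambiguous, and 794 and 510 passed for none.

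The intercalated-like gate held 52 cells (0.940% of cells, exact 95% binomial interval 0.703 to 1.23%) in replicate 1 and 49 cells (1.17%, 0.863 to 1.54%) in replicate 2. All intervals on counts and shares cover counting error only. Its markers were Aqp6, Hepacam2, Insrr, Dmrt2, Hmx2, Spink8, Clnk, Tmem213 and Oxgr1, and the median cell held a UMI of 6 of these 9 in each library. Marker UMIs stood at a median of 12.3 and 10.4 times the level expected from the cell's depth, against a threshold of 2. Only 0 and 1 of the gated cells lay between 2 and 4 times. Median depth was 19901.5 and 31062 UMIs. Unsupervised clusters made without the 10 genes gave an intercalated-like cluster of 43 and 41 cells, of which 41 and 40 were also in the gate. The rest of the 52 and 49 gated cells lay outside that cluster. The gate's markers were not left out and served to name the cluster, so the match is not independent of the gate. Markers of principal cells reached 2 times their expected level in 11 and 6 of the gated cells, and those of the connecting tubule in 4 and 4. This count did not ask for 3 markers with a UMI, as the gate did. All gated cells held at least 3 of the 5 pump subunits, and all 5 were found in 50 of 52 and 45 of 49 cells.

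Promoters are shown for 2 pump subunits, because the forkhead core letters TGTTTA, searched on both strands in the 250 bases before the start, divided these 2 genes. RefSeq (GRCm38.p6) promoters were listed for 6 of the 10 genes: Atp6v1g3, Atp6v1c2, Atp6v1b1, Atp6v0a4, Foxi1 and Slc26a4. The letters occurred on either strand in 1 of the 6, Atp6v1b1, starting 98 bases before the start, and in 12% of all 32851 promoters of that length. The windows are chr6:83742767-83743016 for Atp6v1b1 and chr1:138273488-138273737 for Atp6v1g3, both on the plus strand, with capitals marking the match.
Atp6v1b1: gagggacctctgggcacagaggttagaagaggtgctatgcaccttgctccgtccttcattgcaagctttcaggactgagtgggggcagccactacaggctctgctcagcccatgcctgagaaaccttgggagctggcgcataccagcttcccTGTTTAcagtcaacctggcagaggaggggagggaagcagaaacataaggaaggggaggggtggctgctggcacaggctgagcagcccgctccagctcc
Atp6v1g3: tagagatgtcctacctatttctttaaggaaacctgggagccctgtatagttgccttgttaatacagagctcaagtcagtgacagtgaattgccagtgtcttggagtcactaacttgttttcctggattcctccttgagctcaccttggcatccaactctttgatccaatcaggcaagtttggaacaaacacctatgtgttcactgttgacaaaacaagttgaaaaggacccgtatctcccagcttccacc
A match of these letters is a description of the sequence, not evidence of binding, and no match says only that the letters are not in this window.

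The intercalated-like cells had the highest level of 9 of the 10 genes in both libraries. The exception was Slc4a1, which was higher in erythroid-like cells. Levels are given as the summed UMIs of a gene per 1000000 summed UMIs of that cell type and library (CPM), replicate 1 before replicate 2. Since they are not corrected for transcript length, they are compared between cell types and not between genes.

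Atp6v1g3 encodes a kidney form of the G subunit in the pump's stalk (chr1:138273738-138289462, plus strand; all gene positions are those of GRCm38). Its level in intercalated-like cells was 3998 and 5722 CPM, in 51 of 52 and 47 of 49 cells. Connecting tubule-like cells followed at 325.6 and 309.5 CPM, then principal-like cells at 171.0 and 110.1 CPM. Of the cells of these 2 types, only 14 of 65 and 24 of 80, and 33 of 127 and 28 of 108, held a UMI of it. Intercalated-like cells stood above every other type in both libraries. Podocyte, nephron progenitor, early nephron, stroma, mural, endothelial, immune and urothelium-like cells stayed between 1.34 and 27.4 CPM.

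Atp6v0d2 encodes a d subunit, which couples the membrane ring to the stalk (chr4:19876841-19922605, minus strand). It stood at 1186 and 934.4 CPM in intercalated-like cells, against 120.9 and 75.8 CPM in connecting tubule-like and 90.7 and 66.7 CPM in principal-like cells. Atp6v1c2 encodes a C subunit, which takes part in assembly of the pump (chr12:17284721-17329359, minus strand), and stood at 819.8 and 433.3 CPM, against 57.1 and 33.1 CPM in connecting tubule-like cells. Both genes stood highest in the intercalated-like cells of each library, although the level of Atp6v1c2 differed between the libraries. Atp6v1c2 shares its span with Pdia6 on the other strand. No strand setting of the counting is given in the sources used here, so reads in the overlap could not be told apart.

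Atp6v1b1 encodes the B1 subunit of the catalytic head, and its human counterpart is mutated in distal renal tubular acidosis with deafness (chr6:83742990-83758855, plus strand). Its level was 420.3 and 425.2 CPM in intercalated-like cells and lay between 41.0 and 133.0 CPM in the connecting tubule, distal convoluted tubule, principal and loop of Henle-like types. Proximal tubule-like cells had only 7 and 8 UMIs in all, 0.419 and 0.643 CPM. The connecting tubule-like cells came second, at 133.0 and 128.4 CPM. Their distance from the distal convoluted tubule-like cells, at 126.2 and 69.3 CPM, was within the spread of the latter's libraries.

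Atp6v0a4 encodes the a4 subunit, through which protons cross the membrane, and is likewise a gene of distal renal tubular acidosis (chr6:38048483-38124586, minus strand). It was the only pump subunit of the 5 with more than 5 CPM in proximal tubule-like cells, 201.6 and 185.8 CPM, in 342 of 395 and 227 of 247 cells. Intercalated-like cells had 779.3 and 969.3 CPM. Connecting tubule-like cells, at 193.2 and 206.2 CPM, overlapped the proximal tubule-like values, and distal convoluted tubule and loop of Henle-like cells followed at 170.4 and 161.8 CPM and at 106.1 and 125.4 CPM. Atp6v0a4 shares its span with D630045J12Rik on the same strand and with Tmem213, a marker of the intercalated gate, on the other. Its counts are uncertain to that extent, and the part of the overlap was not tested.

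Foxi1 (chr11:34204338-34208089, minus strand) was found at 398.6 and 240.3 CPM in intercalated-like cells, in 49 of 52 and 47 of 49 of them. The highest cells held 29 and 30 UMIs. Principal-like cells had 57.1 and 60.4 CPM, in 34 of 127 and 36 of 108 cells, and connecting tubule-like cells 77.8 and 33.1 CPM, in 11 of 65 and 12 of 80. The order of these 2 types was not the same in both libraries. In loop of Henle-like and proximal tubule-like cells the transcript was nearly absent, with 4 and 1 UMIs and with 4 and 2 UMIs over all their cells.

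Slc4a1 (chr11:102348824-102366203, minus strand) stood at 150.8 and 245.3 CPM in intercalated-like cells, in 34 of 52 and 32 of 49. Erythroid-like cells, where the protein is the main anion exchanger of the red cell, had 325.4 and 298.4 CPM in 18 of 19 and 26 of 29 cells. Both erythroid-like values exceeded both intercalated-like ones, but so few erythroid-like cells did not enter the fit, and the difference was not tested. The erythroid markers had a median of 0 UMIs per intercalated-like cell in each library, with a highest value of 1 and 3 UMIs. Haemoglobin had a median of 2 UMIs in each library.

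Slc4a9 (chr18:36528147-36556273, plus strand) was the broadest of the exchangers among intercalated-like cells, found in 50 of 52 and 47 of 49. Its level there was 887.6 and 946.9 CPM. Connecting tubule-like cells had 170.1 and 31.1 CPM, and principal-like cells 78.4 and 105.2 CPM. These 2 types overlapped each other and stayed well below the intercalated-like cells.

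Slc26a4 (chr12:31519827-31559969, minus strand) was found in the fewest intercalated-like cells, 7 of 52 and 11 of 49, at a summed level of 306.2 and 415.2 CPM. The highest cells held 160 and 284 UMIs. Principal-like cells had 11.0 and 9.08 CPM. Proximal tubule-like cells had 4.49 and 2.41 CPM, spread over 52 of 395 and 24 of 247 cells with at most 4 and 2 UMIs each. Thinned to 5000 UMIs per cell, the share with a UMI was 1.57% and 0.851% in proximal tubule-like cells and 13.5% and 19.1% in intercalated-like cells.

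Car2 (chr3:14886273-14900770, plus strand) encodes the cytosolic carbonic anhydrase II. It was found in every intercalated-like cell, at 1463 and 1145 CPM. Erythroid-like cells came second at 803.7 and 902.3 CPM, then proximal tubule-like cells at 320.4 and 264.3 CPM and principal-like cells at 284.5 and 282.2 CPM. Proximal tubule-like and principal-like values overlapped. Distal convoluted tubule-like cells had only 13.9 and 11.4 CPM, the lowest of the distal tubule and duct types.

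**Figure D1:**
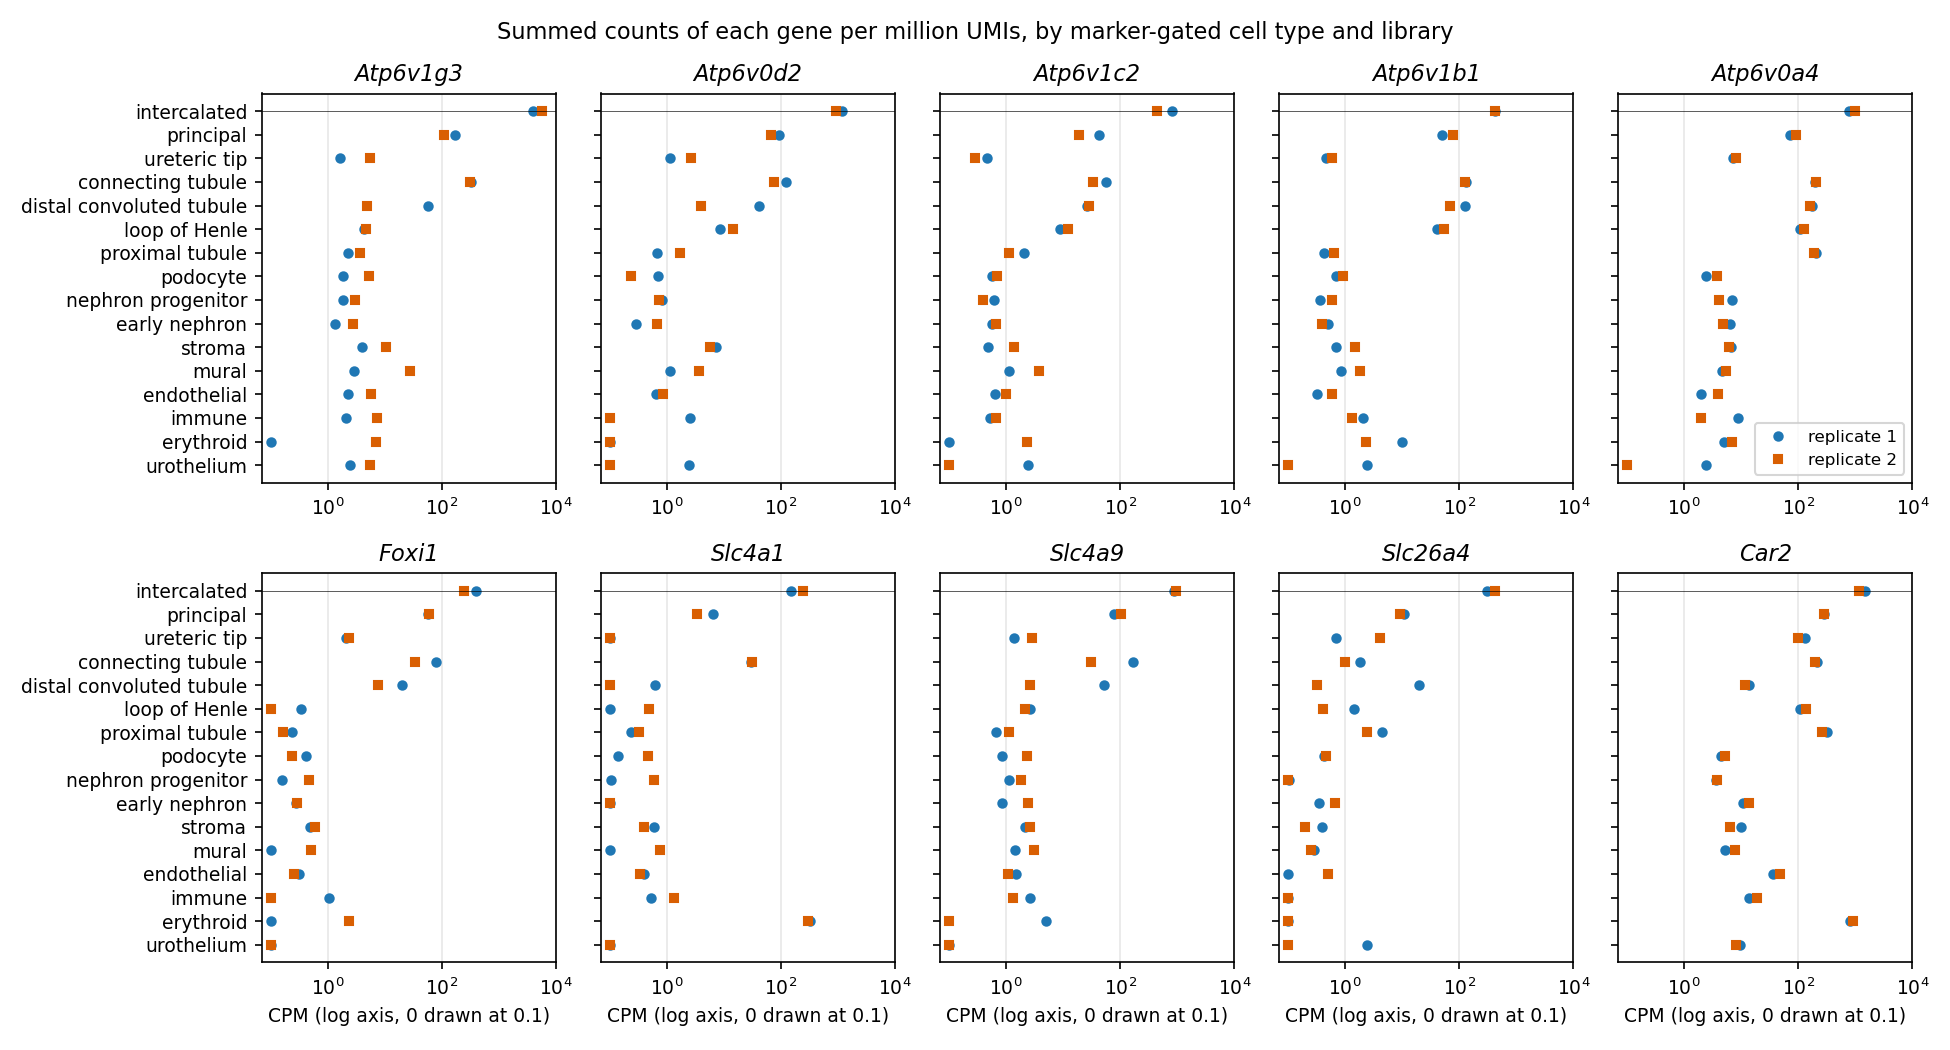
Level of each of the 10 genes in 16 marker-gated cell types, as CPM of summed UMIs on a log axis with 0 drawn at 0.1; circles are replicate 1 and squares replicate 2, and the thin line marks the intercalated-like row. The intercalated-like points lie farthest right in every panel but Slc4a1, where the erythroid-like cells lie at 325.4 and 298.4 CPM, and Atp6v0a4 and Car2 reach over 180 CPM in proximal tubule-like cells.

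Free RNA was described in 2 ways. In barcodes under 100 UMIs, taken as empty, Atp6v1g3 stood at 68.04 and 150.05 CPM, Slc4a9 at 18.97 and 34.63 CPM, Foxi1 at 6.32 and 9.58 CPM, Slc26a4 at 5.45 and 5.89 CPM and Slc4a1 at 4.58 and 7.12 CPM. In stroma-like cells, a type that should lack the exchangers, a UMI of Slc4a9 was found in 2.57% and 2.58% of cells, of Slc4a1 in 0.351% and 0.646%, and of Slc26a4 in 0.468% and 0.323%, at median depths of 11006 and 15850 UMIs. The intercalated-like levels were more than 10-fold above the empty-barcode levels for each of these 5 genes. Empty-barcode levels were no floor for the cell types: Atp6v1g3 stood at only 3.93 and 10.6 CPM in stroma-like cells, and its level of 110.1 CPM in the principal-like cells of replicate 2 lay below the empty-barcode level of that library. The proximal tubule-like level of Slc26a4 lay below the empty-barcode level but above that of stroma-like cells, 0.393 and 0.197 CPM.

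The comparison with principal-like cells, the partner cells of the collecting duct (127 and 108 cells), asked how far the 10 genes separate the cell types of 1 segment. All 10 were higher in intercalated-like cells at an adjusted p under 0.05 (edgeR quasi-likelihood test on counts summed per library and type, Benjamini-Hochberg over 17131 genes). Of all genes tested, 11.2% were called higher, and 23.1% were called in either direction. The median log2 fold change was 3.69 for the 10 genes and -0.10 for all genes.

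Slc4a1 differed by 5.38 ± 0.36 on the log2 scale (SE; edgeR adjusted p = 5.8e-09). Slc26a4 differed by 5.30 ± 0.53 (edgeR adjusted p = 6.8e-07) and Slc4a9 by 3.41 ± 0.54 (edgeR adjusted p = 0.000102). Among the pump subunits the difference was 5.13 ± 0.65 for Atp6v1g3, 4.42 ± 0.32 for Atp6v1c2, 3.85 ± 0.42 for Atp6v0d2, 3.53 ± 0.25 for Atp6v0a4 and 2.85 ± 0.22 for Atp6v1b1. Foxi1 differed by 2.48 ± 0.24 and Car2 by 2.30 ± 0.20, the smallest differences of the 10.

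Principal-like cells that also passed the intercalated gate, 22 of 127 and 21 of 108, carried much of the signal of this type. Without them, Atp6v1g3 fell from 171.0 to 32.9 CPM in replicate 1 and from 110.1 to 4.45 CPM in replicate 2. Slc4a9 went from 78.4 to 17.9 CPM and from 105.2 to 8.30 CPM, Slc26a4 from 11.0 to 0.558 CPM and from 9.08 to 1.19 CPM, and Slc4a1 was left with 3 and 0 UMIs. Foxi1 kept 36.8 and 23.4 CPM, in 14 of 105 and 17 of 87 cells, and Car2 kept 247.1 and 231.5 CPM. All 10 calls held, with log2 fold changes of 3.46 ± 0.25 for Foxi1 and 2.51 ± 0.28 for Car2. The origin of these cells was not tested.

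The connecting tubule joins the distal convoluted tubule to the collecting duct and holds intercalated cells itself. Against connecting tubule-like cells (65 and 80 cells), all 10 genes were again higher (edgeR adjusted p under 0.05), where 7.12% of all genes tested were called higher and 15.6% in either direction. The median log2 fold change was 2.89 for the 10 genes and -0.02 for all. Slc26a4 showed the largest difference, 7.93 ± 0.80 (SE; edgeR adjusted p = 1.3e-06), with only 3 and 2 UMIs in the connecting tubule-like cells, 1.82 CPM (exact Poisson 95% interval 0.376 to 5.33) and 1.003 CPM (0.122 to 3.62). Atp6v1b1 showed the smallest, 1.57 ± 0.21 (edgeR adjusted p = 3.1e-05), and Slc4a1 differed by 2.57 ± 0.32 (edgeR adjusted p = 1.7e-05).

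These values depended on how mixed cells were handled. Of the connecting tubule-like cells, 18 and 18 also passed the intercalated gate, and without them Slc4a1 went from 49 and 61 UMIs to 0 and 0. Atp6v1g3 went from 325.6 to 5.002 CPM in replicate 1 and from 309.5 to 18.8 CPM in replicate 2, Foxi1 from 77.8 to 13.8 CPM and from 33.1 to 11.1 CPM. Atp6v1b1 kept 88.8 and 98.6 CPM and Atp6v0a4 103.8 and 135.1 CPM. All 10 calls held in that form. When the margin between the first and the second type was dropped instead, so that mixed cells entered the types, 5 of 10 calls were left: Atp6v1g3, Slc4a1, Slc4a9, Slc26a4 and Car2 were lost, with edgeR adjusted p of 0.101, 0.192, 0.0939, 0.256 and 0.0598. Calls over all genes tested, 15.6% in either direction with the margin, also fell in that form.

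Against proximal tubule-like cells (395 and 247 cells), of another segment that secretes acid, all 10 genes were higher too, where 15.9% of all genes tested were called higher and 37.6% in either direction (edgeR adjusted p under 0.05). The median log2 fold change of all genes was -0.10. The genes fell into 2 ranges. Atp6v0a4 differed by 2.01 ± 0.23 (SE; edgeR adjusted p = 5.6e-07) and Car2 by 1.995 ± 0.20 (edgeR adjusted p = 9.3e-08), and the other 8 by 6.57 or more. The proximal tubule-like cells held few UMIs of those 8, from 4 and 2 for Foxi1 and 4 and 4 for Slc4a1 to 75 and 30 for Slc26a4, so the size of these differences rests on small counts.

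The pump is assembled from many more subunits, of which the body at large uses a common set. Of 20 further V-ATPase genes, 19 were tested. Against principal-like cells 13 were higher, 0 lower and 6 not called, where 11.2% of all genes tested were called higher and 11.9% lower. The largest differences were Atp6v1e1 at 3.004 ± 0.18, Atp6v0c at 2.92 ± 0.12, Atp6v1d at 2.78 ± 0.14, Atp6v1a at 2.53 ± 0.15 and Atp6v0b at 2.42 ± 0.15 (SE; all edgeR adjusted p under 0.05). Atp6v0c, which forms the membrane ring, stood at 2396 and 3446 CPM in intercalated-like and 366.0 and 454.9 CPM in principal-like cells. The median log2 fold change was 1.20 for the 19 genes, against -0.10 for all genes.

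Against connecting tubule-like cells 9 were higher, 2 lower and 8 not called, where 7.12% of all genes tested were called higher and 8.52% lower. The 2 lower ones were Atp6v0d1 (-0.55 ± 0.13) and Atp6v0e2 (-1.47 ± 0.39), alternatives to Atp6v0d2 and Atp6v0e. Against proximal tubule-like cells 10 were higher, 5 lower and 4 not called, where 15.9% of all genes tested were called higher and 21.7% lower. The 5 lower ones were Atp6v1g1, Atp6v1b2, Atp6v1c1, Atp6v0d1 and Atp6v0e2. The shares of subunits called lower were near those of all genes in both comparisons, and the lower genes were named after their values were seen. Atp6v1g1 stood at 250.6 and 326.8 CPM in intercalated-like and 544.9 and 633.2 CPM in proximal tubule-like cells, and Atp6v1b2 at 105.5 and 95.9 CPM against 169.6 and 149.1 CPM.

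**Figure D2:**
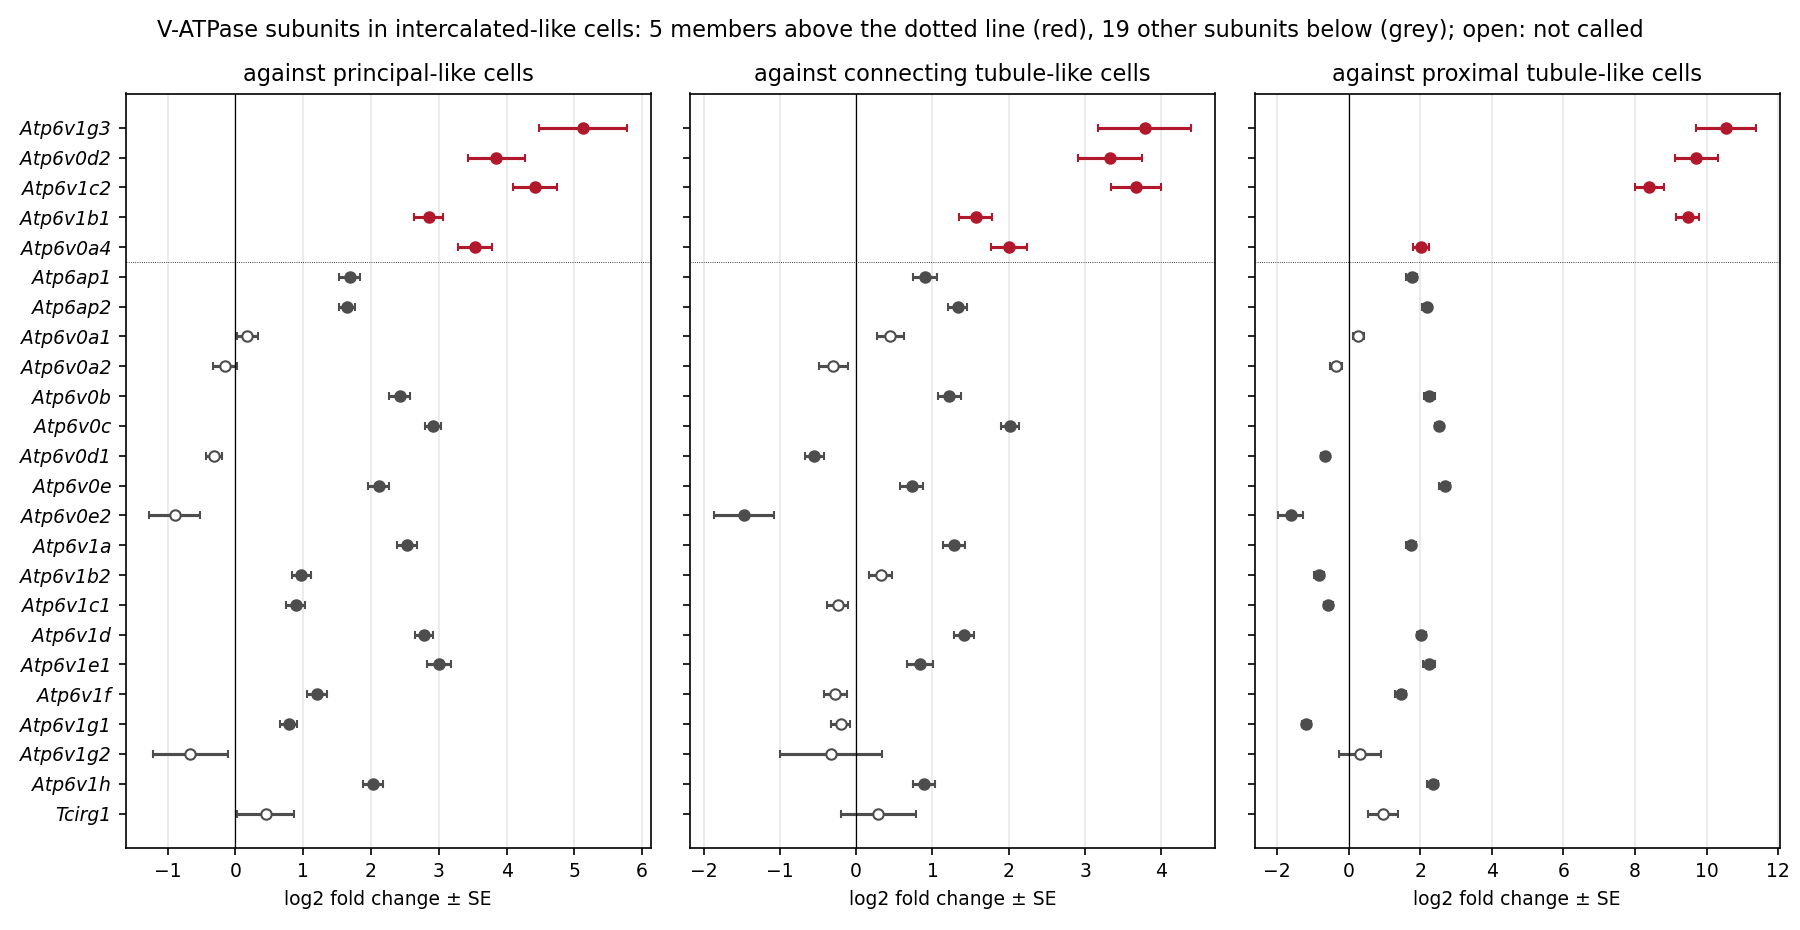
Log2 fold change with SE of V-ATPase subunits in intercalated-like cells against 3 other types; red points above the dotted line are the 5 subunits studied, grey points below it are 19 other subunits, and open points were not called (edgeR adjusted p of 0.05 or more). All 5 red points lie right of 0 in each panel, while the grey points run from -1.62 to 3.004.

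Of 14 further acid-base transport genes, 6 were higher, 2 lower and 6 not called against principal-like cells, where 11.2% of all genes tested were called higher and 11.9% lower. The higher ones included Bsnd (4.17 ± 0.32), Rhbg, an ammonia transporter (3.84 ± 0.27), Slc26a7, an anion exchanger of acid-secreting cells (3.60 ± 0.54), and Atp4a, a proton-potassium pump (3.30 ± 0.64; SE, edgeR adjusted p under 0.05 for each). Kcnma1, a potassium channel, was also higher (2.02 ± 0.64), and Atp12a and the sodium bicarbonate transporter Slc4a4 were lower (-2.81 ± 0.41 and -1.87 ± 0.27). Rhbg stood at 224.3 and 249.02 CPM in intercalated-like against 14.6 and 21.1 CPM in principal-like cells. Against connecting tubule-like cells 1 was higher, 3 lower and 10 not called, where 7.12% of all genes were called higher and 8.52% lower. Slc26a7 was higher by 6.03 ± 0.83, and Atp12a, the other proton-potassium pump, was lower (-4.71 ± 0.39), at 7.54 and 15.6 CPM against 329.2 and 225.2 CPM. Atp4a and the potassium chloride transporter Slc12a7 were the other lower ones (-1.72 ± 0.47 and -1.63 ± 0.35). Against proximal tubule-like cells 8 were higher, 3 lower and 3 not called, where 15.9% of all genes were called higher and 21.7% lower, and the lower ones were Slc12a7 and the proximal acid-base transporters Slc9a3 and Slc4a4. The shares called higher against connecting tubule-like cells, and lower against principal-like and proximal tubule-like cells, were near those of all genes.

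Among 15 further carbonic anhydrases 12 were tested. Against principal-like cells 2 were higher (Car12 and Car15), 2 lower (Car5b and Car8) and 8 not called. Against connecting tubule-like cells Car12 was higher, Car8 lower and 10 not called, and against proximal tubule-like cells Car12, Car15 and Car6 were higher, 2 were lower and 7 not called. The shares of all genes called higher and lower were 11.2% and 11.9%, 7.12% and 8.52%, and 15.9% and 21.7% in the 3 comparisons, so these few calls are no result about the carbonic anhydrases as a group. Car12, a membrane-bound form, was the clearest, at 992.2 and 567.1 CPM in intercalated-like against 78.2 and 73.0 CPM in principal-like cells (3.42 ± 0.26). It was also higher against connecting tubule-like (3.01 ± 0.26) and proximal tubule-like cells (2.20 ± 0.24; SE, edgeR adjusted p under 0.05 for each). Car4 and Car14, membrane-bound forms of the proximal tubule, were lower against proximal tubule-like cells (-6.46 ± 0.32 and -5.10 ± 0.54).

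Notch signalling is known to favour the principal over the intercalated fate, and 11 regulators of this choice were examined. Against principal-like cells 3 were higher, 4 lower and 4 not called, where 11.2% of all genes were called higher and 11.9% lower. Elf5, a factor of principal cells, was lower (-2.83 ± 0.44; SE), at 27.3 and 17.4 CPM against 171.5 and 160.4 CPM. Gata3 and the receptor Notch2 were lower (-1.95 ± 0.27 and -1.92 ± 0.27), and the Notch ligand Jag1 and Tfcp2l1, a factor that acts upstream of Foxi1, were higher (1.35 ± 0.25 and 1.31 ± 0.26; edgeR adjusted p under 0.05 for each). Foxp1 was also higher and Mib1, a ligase that activates Notch ligands, lower (1.26 ± 0.26 and -0.64 ± 0.16). Jag1 stood at 167.7 and 92.8 CPM in intercalated-like and 61.1 and 45.9 CPM in principal-like cells. Tfcp2l1 was present in both types, at 1820.5 and 1666.6 CPM against 774.5 and 725.7 CPM. Against connecting tubule-like cells 3 were higher (Foxp1, Jag1 and Adam10), Notch2 was lower and 7 were not called, where 7.12% of all genes were called higher and 8.52% lower. Against proximal tubule-like cells 7 were higher, 2 lower (Notch2 and Mib1) and 2 not called, where 15.9% were called higher and 21.7% lower, so the share called lower was near that of all genes.

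Genes most like Foxi1 were sought over 32 sums of 16 types in 2 libraries, as Pearson's r of log2(CPM + 10), among 3299 genes outside the gates and the 10. These 3299 were limited to genes with at least 50 CPM in intercalated-like cells of both libraries. That is the type where Foxi1 stood highest, so the filter itself favours a high r. The 6 with the highest r were Syn2 (0.97), Guca2a (0.95), Gm12121 (0.95), Wscd2 (0.94), Malrd1 (0.93) and Cpsf4l (0.93). Syn2, a synapsin, stood at 543.7 and 358.6 CPM in intercalated-like, 47.0 and 33.7 CPM in principal-like and 38.3 and 16.6 CPM in connecting tubule-like cells. Among the other genes studied, r with Foxi1 ran from 0.55 for Slc4a1, which erythroid-like cells also hold, to 0.99 for Slc4a9. The sums of 1 library share its depth and free RNA, so these values are descriptions.

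Within single intercalated-like cells, Slc4a1 and Slc26a4 were found largely apart, and Slc4a9 with either. In replicate 1, 33 of 52 cells held Slc4a1 and Slc4a9 without Slc26a4, 7 held Slc4a9 and Slc26a4 without Slc4a1, 10 held Slc4a9 alone, 1 held Slc4a1 alone, and 1 held none. In replicate 2, 30 of 49 held Slc4a1 and Slc4a9, 9 held Slc4a9 and Slc26a4, 6 held Slc4a9 alone, 2 held all 3, and 2 held none. Every cell with Slc26a4, 7 and 11, also held Slc4a9. Cells with at least 2 of the 3 exchangers made up 76.9% (exact 95% binomial interval 63.2 to 87.5%) and 83.7% (70.3 to 92.7%).

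Slc4a1 together with Slc26a4 was found in 0 of 52 cells of replicate 1 (exact 95% binomial interval 0 to 6.85%) and in 2 of 49 cells of replicate 2 (4.08%, exact 95% binomial interval 0.498 to 14.0%). The 2 cells held 8 and 3 UMIs of Slc4a1 and 2 and 1 UMIs of Slc26a4. Cells with Slc26a4 but without Slc4a1 held 14 to 160 UMIs of it in replicate 1 and 2 to 284 in replicate 2. The low end of that range in replicate 2 thus met the double-positive cells, which were both of that library. Both double-positive cells held Dmrt2, at 8 and 17 UMIs, and 0 UMIs of Hmx2. Of the 7 and 11 cells with Slc26a4, 0 and 2 held Slc4a1, against 34 of 52 and 32 of 49 of all intercalated-like cells. The difference between these shares was not tested.

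These shares depend on depth. After each cell was thinned to 5000 UMIs, which left out 0 and 2 shallower cells, Slc4a1 was found in 36.5% and 44.7% of cells instead of 65.4% and 65.3%. Slc26a4 was found in 13.5% and 19.1% instead of 13.5% and 22.4%, and Slc4a9 in 80.8% and 80.9% instead of 96.2% and 95.9%. Cells with at least 2 exchangers then made up 40.4% and 53.2%, and those with both Slc4a1 and Slc26a4 made up 0 of 52 and 0 of 47. The cells with Slc4a9 alone rose in number from 10 to 21 and from 6 to 13 under thinning, so at this depth a missing Slc4a1 UMI does not show that the transcript was absent.

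**Figure D3:**
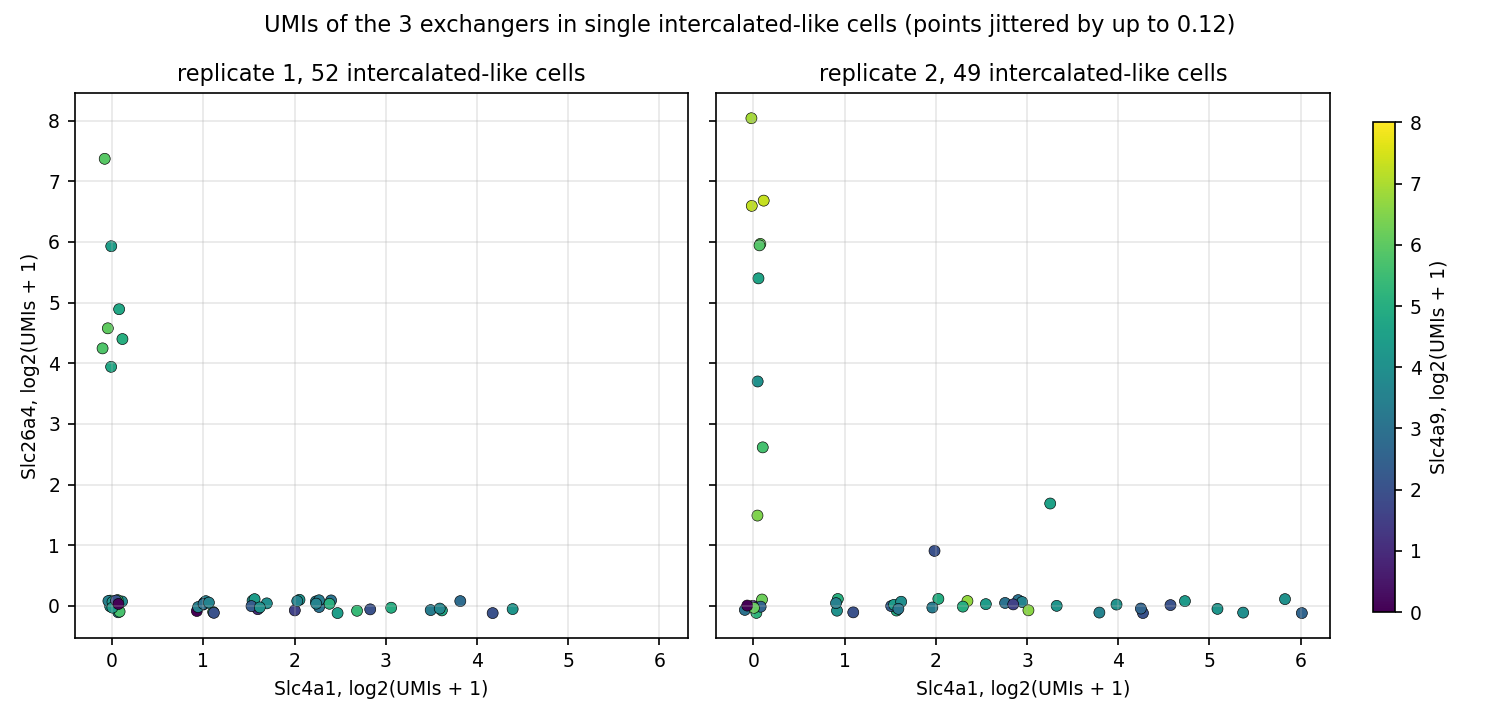
UMIs of Slc4a1 (horizontal) and Slc26a4 (vertical) in each intercalated-like cell, as log2(UMIs + 1) with points jittered by up to 0.12, and Slc4a9 as colour; left, the 52 cells of replicate 1, right, the 49 cells of replicate 2. The points lie along the 2 axes, apart from 2 cells of replicate 2.

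The cells were then described by the exchanger they held: Slc4a1 without Slc26a4 (34 and 30 cells, median depth 20799.5 and 31716.5 UMIs) and Slc26a4 without Slc4a1 (7 and 9 cells, 15377 and 26833 UMIs). With so few cells, and since groups were formed from these genes, their levels are descriptions. Slc4a9 was higher in the Slc26a4 cells of both libraries, at 1983 and 2315 CPM against 613.6 and 544.1 CPM in the Slc4a1 cells. Cell by cell the groups overlapped, at 21 to 65 and 15 to 157 UMIs in the former and 0 to 53 and 2 to 104 UMIs in the latter. Slc4a9 was therefore detected in nearly all cells of both kinds.

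Kit, a receptor tyrosine kinase that was in no gate, stood at 820.0 and 667.7 CPM in the Slc4a1 cells and 112.1 and 165.1 CPM in the Slc26a4 cells. Slc26a7 was found in 21 of 34 and 12 of 30 of the Slc4a1 cells, and in 0 of 7 and 0 of 9 of the Slc26a4 cells. Its summed level in the Slc4a1 cells differed between the libraries, 346.3 and 64.1 CPM. Foxi1 (386.4 and 190.5 CPM against 343.3 and 377.9 CPM), Atp6v1g3 (3975 and 6242 CPM against 5675 and 4649 CPM) and Car2 (1421 and 1340 CPM against 1920 and 657.3 CPM) showed no common order of the 2 groups over both libraries.

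The other 4 subunits did show 1 order in both libraries. Atp6v1c2 stood at 1275 and 841.5 CPM in the Slc26a4 cells and 760.4 and 349.9 CPM in the Slc4a1 cells, Atp6v1b1 at 637.6 and 511.2 CPM against 382.3 and 392.3 CPM, Atp6v0d2 at 1387 and 1149 CPM against 1141 and 885.5 CPM, and Atp6v0a4 at 1079 and 1086 CPM against 732.7 and 968.5 CPM. These differences were less than 3-fold. Car12 was likewise higher in the Slc26a4 cells, at 1709.6 and 1289 CPM against 923.9 and 413.1 CPM. None of these differences was tested.

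Some of the markers that defined the gate also differed between the 2 groups, which is a description since they chose the cells. Hmx2, a homeobox factor, was found in every Slc26a4 cell, at 1107 and 1102 CPM, and in 0 of 34 and 0 of 30 Slc4a1 cells. Dmrt2, a DM-domain factor, was found in 33 of 34 and 29 of 30 Slc4a1 cells, at 318.6 and 226.3 CPM, and in 0 of 7 and 0 of 9 Slc26a4 cells. Insrr was higher in the Slc26a4 cells (490.5 and 254.0 CPM against 59.6 and 42.4 CPM), and Aqp6 in the Slc4a1 cells (324.1 and 149.9 CPM against 77.1 and 3.18 CPM). Tmem213 was higher in the Slc26a4 cells (2270 and 1978 CPM against 736.9 and 1219 CPM) but was found in all cells of both groups. Not all markers split in this way. Spink8 stood at 285.3 and 233.9 CPM in the Slc4a1 cells and 280.3 and 190.5 CPM in the Slc26a4 cells. In the same order, Hepacam2 stood at 278.4 and 258.4 CPM against 280.3 and 384.2 CPM, and Oxgr1 at 159.3 and 108.5 CPM against 126.1 and 50.8 CPM. Slc4a8, a check gene of type B cells that was in no gate, stood at 30.5 and 9.43 CPM against 7.01 and 12.7 CPM. It showed no common order over both libraries. Counted from the side of the markers, 9 and 11 cells held 2 or more UMIs of Hmx2, of which 7 and 9 held Slc26a4 and 0 and 0 held Slc4a1. Cells with 2 or more UMIs of Dmrt2 numbered 36 and 32, of which 27 and 28 held Slc4a1 and 0 and 2 held Slc26a4. Both Hmx2 and Dmrt2 reached 2 UMIs in 1 and 1 cells, and neither did in 8 and 7 cells.

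**Figure D4:**
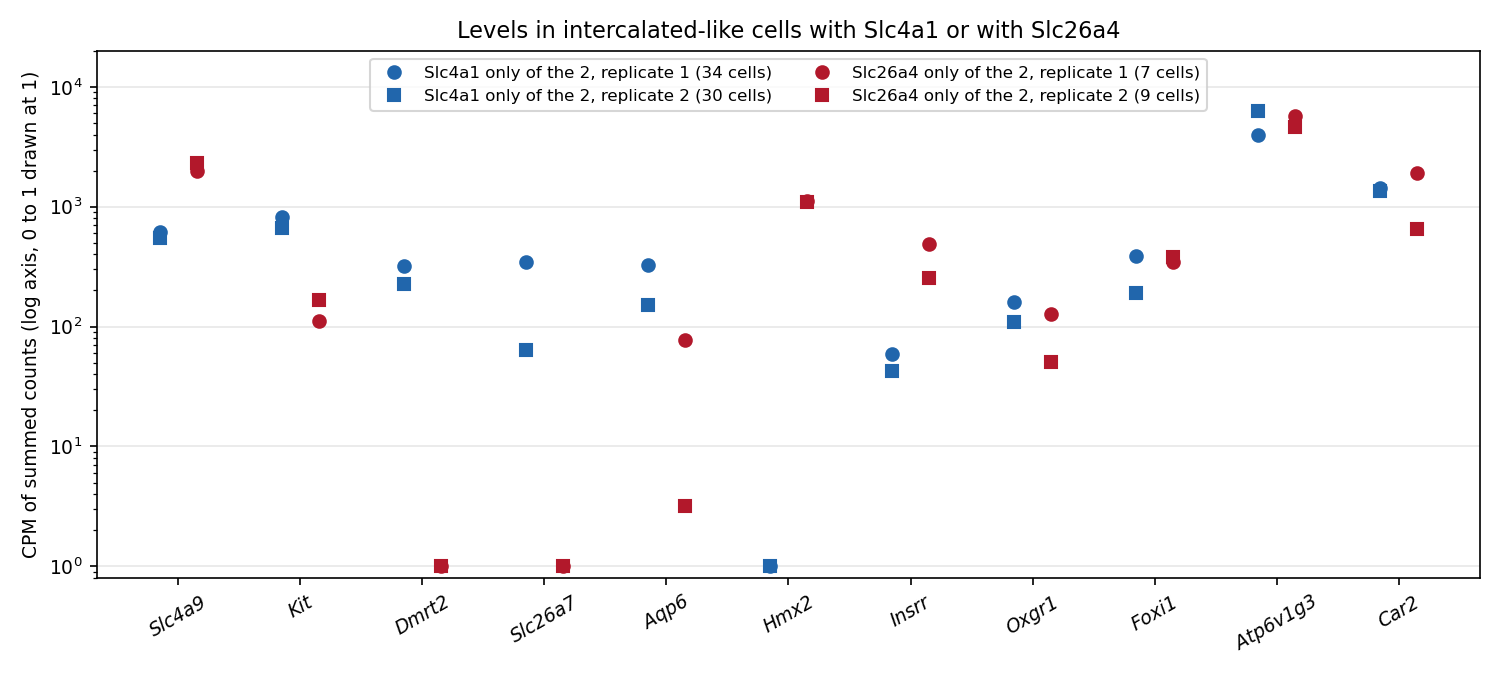
Summed level in intercalated-like cells with Slc4a1 and no Slc26a4 (blue) or Slc26a4 and no Slc4a1 (red), as CPM on a log axis with 0 to 1 drawn at 1; circles are replicate 1 and squares replicate 2. Dmrt2 and Slc26a7 are at 0 in the red groups and Hmx2 at 0 in the blue, while Slc4a9 is higher in the red groups of both replicates.

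A few cells in the intercalated-like gate held little or no Atp6v1g3. At most 1 UMI of it was found in 1 and 4 cells, of median depth 12631 and 28468.5 UMIs, against medians of 69.5 and 191.0 UMIs per cell over all intercalated-like cells. Of these, 1 and 3 held 2 or more UMIs of Hmx2, and all of those with Hmx2 held Slc4a9. They included the 1 and 1 cells with 2 or more UMIs of both Hmx2 and Dmrt2. The remaining cell of replicate 2, of 30104 UMIs, held 0 UMIs of Foxi1, Slc4a9, Hmx2 and Dmrt2 and 27 of the gate marker Tmem213. Its identity was not tested.

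Over all 5529 and 4206 cells, 17 and 8 held both Slc4a1 and Slc26a4. Of these, 8 and 2 were among the 56 and 33 cells that were ambiguous between the intercalated and another type, in replicate 1 mostly the connecting tubule. The 8 held 43111 to 118237 UMIs and the 2 held 94090 and 131391 UMIs, against the intercalated-like medians of 19901.5 and 31062. The highest joint counts were in these cells, such as 27 UMIs of Slc4a1 with 74 of Slc26a4 in replicate 1 and 44 with 75 in replicate 2. Scrublet, which scores likely doublets, removed 2 of the 17 and 1 of the 8. The part of doublets in these counts was not tested.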

How the data were processed

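The deposited files hold raw UMI counts per gene and barcode for 2 libraries. The file headers name Cell Ranger 4, while the submitters' processing notes name Cell Ranger 6.0.1 and mm10. The matrices hold all barcodes: 200331687 UMIs in replicate 1 and 173166168 in replicate 2, of which 146529005 and 129083192 lay in cells. Sequencing read the 3' end of each cDNA, per the labels' protocols. The counter's strand setting and annotation are not given in the sources used here. Both libraries formed 1 group, and their numbers are names only.

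For each cell and type, the UMIs over the type's markers plus 1 were divided by the number expected from the library's mean share plus 1. A type needed 3 markers with a UMI and a ratio of 2, and the cell took the best type if the next lay at least 1 log2 unit lower. No doublets were removed beyond ambiguous cells; a Scrublet removal of 0.8% per 1000 cells was an alternative.

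Counts were summed per library and type. Types with at least 20 cells in each library, 14 of 16, entered 1 fit of edgeR 4.0.16 (R 4.3.3, limma 3.58.1; TMM, filterByExpr, type means and library as a block, 13 residual degrees of freedom). Quasi-likelihood F tests were two-sided, with Benjamini-Hochberg adjustment over all genes tested that no gate used and a threshold of 0.05; SE is the log2 fold change divided by the root of F. Erythroid-like and urothelium-like cells were too few for the fit. The procedure was tested on simulated sums, in which only genes with higher counts were changed and no mixed cells were modelled. That run does not bear on mixed cells or low counts. Exact Clopper-Pearson 95% intervals cover counting error only. Thinning, clusters (2000 variable genes, 30 components, 15 neighbours, Leiden resolution 1; scanpy 1.11.5) and figures used Python 3.11.15, scipy 1.17.1, numpy 2.4.6, pandas 2.3.3 and matplotlib 3.10.9. Gene positions are those of GENCODE M21.

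The members and the lists were chosen with earlier results of these data known. The plan was to name at most 5 called genes per list by absolute log2 fold change, and more are named for some lists. Other named genes were the 10, the 6 most like Foxi1 with at least 50 CPM in intercalated-like cells, and genes described within intercalated-like cells. A gene of the acid-base transport list is counted but not reported here by name. Alternatives changed the scaling, test (DESeq2 1.42.0), filter, block, types fitted, gate, margin, doublet removal, depth and library.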

Additional observations from a re-analysis of the deposited data

How the results depend on the processing

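The count of 10 of 10 genes called higher was kept under 11 alternatives against principal-like cells and 12 against proximal tubule-like cells, and under 11 of 12 against connecting tubule-like cells. The exception was the gate with no margin, which left 5 of 10, with log2 fold changes of 2.08 (Atp6v1g3), 1.41 (Slc4a1), 1.61 (Slc4a9), 2.03 (Slc26a4) and 1.35 (Car2) for those lost, and adjusted p from 0.0598 to 0.256 by edgeR's quasi-likelihood test. None of the 10 genes changed direction under the alternatives run. In the main fits, 11.2%, 15.9% and 7.12% of all genes tested were called higher against principal, proximal tubule and connecting tubule-like cells. Leaving out the cells of other types that also passed the intercalated gate was chosen after seeing the data. Over all genes the connecting tubule count, in either direction, moved from 2680 of 17131 (15.6%) to 1511 with no margin and to 1749 with only the 2 types fitted. The number of genes tested in these 2 forms is not given here, so the 5 of 10 calls left are not set against a share. The fit with no replicate block called 10 of 10 in each comparison; the numbers name the libraries only, so no other pairing of samples was possible. With 1 library alone there is no test, and the log2 fold changes ran from 1.97 to 5.83, from 1.65 to 7.70 and from 1.95 to 10.28 against principal, connecting tubule and proximal tubule-like cells. Leiden clusters gave no principal-like class, so that comparison has no such value.

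The mean share of intercalated-like cells with at least 2 exchangers was 80.3%, and 76.9 to 83.7% with 1 library left out. It was 67.6% when 2 UMIs were asked for, 46.8% and 31.8% with cells thinned to 5000 and 3000 UMIs, and 32.2% when cells were gated on 3 of the 5 pump subunits. That last gate took a mean of 326 cells per library instead of 50.5 (49 to 52 with 1 library left out). By the marker gates, the cells with 3 or more subunits included 75 and 80 ambiguous, 70 and 111 loop of Henle-like, 34 and 32 principal-like, 18 and 29 connecting tubule-like and 14 and 35 distal convoluted tubule-like cells. Depth limits detection: Slc4a1 had a median of 3 and 6 UMIs in the cells that held it without Slc26a4, and thinning to 5000 UMIs took the share of cells with Foxi1 from 94.2% to 75.0% and from 95.9% to 68.1%.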
